A study of Drosophila melanogaster with 18 samples.

Results

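The gene foxo encodes the single FOXO protein of the fruit fly Drosophila melanogaster, a forkhead transcription factor. When insulin-like peptides activate their receptor, the kinase Akt phosphorylates FOXO and holds it in the cytoplasm, and in starved or stressed flies FOXO enters the nucleus and acts on genes of growth, metabolism and stress resistance. In the adult head it is known from fat body, neurons and muscle, all of which contribute to the RNA of a whole head.

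Heads of females homozygous for the foxo allele c431 were compared with heads of females of the control line 5905 (w1118, called wild type below), all 3 days after eclosion, with 3 libraries of polyadenylated RNA in each group. The comparison asked what foxo controls in young heads. All 10480 genes of the authors' deposited table of this comparison were taken, and 9918 of them also stand among the 10884 genes of the table for the other 12 libraries of the series, wild-type male heads at 3, 15, 30 and 45 days (3 libraries at each age). The mutant was 1 allele set against 1 control line. The sources used here give neither what the c431 lesion removes nor whether the lines were bred to a shared background, so effects of foxo and of other differences between the lines cannot be told apart. No value per female library was given, so every female value below is the authors' own estimate over both groups, the female depth is unknown, and nothing in the labels tells whether replicates came from separate collections of flies. The male libraries held between 2999956 and 4102364 recovered reads.

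At an adjusted p under 0.05, 617 genes were higher and 642 lower in foxo mutant females by the authors' deposited table, which is 6.26% and 6.51% of the 9860 genes with an adjusted p and 12.8% together. These shares are the background to every list counted below. A list with calls near them held no more calls than genes at large. The median log2 change was 0.50 among the higher genes, -0.39 among the lower genes and 0.004 over all tested genes in the authors' deposited table. The tails were uneven. A change of at least 4-fold was found for 3 higher and 11 lower genes, and of at least 2-fold for 57 higher and 39 lower genes, by the authors' deposited table.

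**Figure D1:**
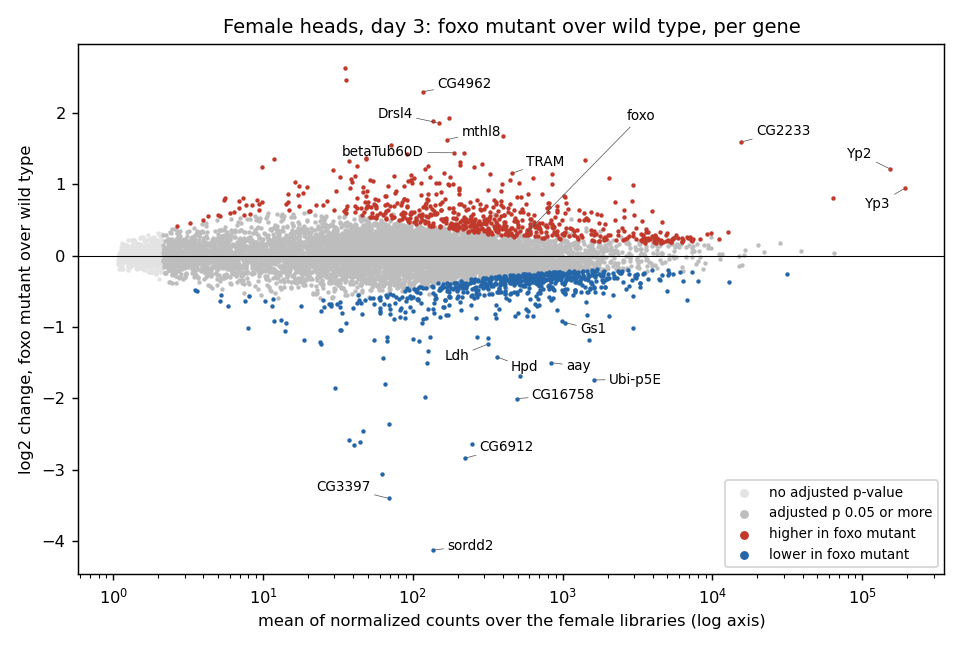
Each point is a gene of the authors' deposited table, with the mean of normalized counts over the female libraries on a log axis and the log2 change of foxo mutant over wild type on the other. The 617 higher genes are red, the 642 lower genes blue, the grey genes had an adjusted p of 0.05 or more or none, and the deepest point is sordd2 at -4.13.

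Markers of the head's cell types were read first. In whole heads, fewer cells of a type and less RNA per cell cannot be told apart. Of 6 neuron markers 5 were lower in the mutant, among them elav at a log2 change of -0.38, and 0 of 6 glial markers passed, with 1 at an unadjusted p under 0.05, in the authors' deposited table. A wider list of 35 tested glial and blood-brain barrier genes gave 1 higher and 8 lower (median -0.08) by the authors' deposited table. Over all tested genes 6.26% were higher and 6.51% lower, so the wider glial list held more lower calls than its 6 markers show. Of 8 photoreceptor markers the opsin gene Rh3 (-0.50) and the photoreceptor membrane protein gene chp (-0.35) were lower, while the opsin genes ninaE (0.04), Rh4 (0.09) and Rh6 (-0.10) did not pass by the authors' deposited table. On the other side, 6 of 8 hemocyte markers, 5 of 8 head fat body markers and 2 of 6 muscle markers were higher in the mutant by the authors' deposited table. The fat body calls were Yp1, Yp2, Yp3, fit and to, while Lsp2 (0.27), FASN1 (0.08) and tobi (-0.03) did not pass. The muscle calls were Act88F and Mlc2, while Mhc (-0.08), up (0.04) and wupA (0.06) did not pass and TpnC4 had no adjusted p. Of the hemocyte markers Hml (0.14) and srp (0.21) did not pass. The 3 yolk protein genes, Yp1, Yp2 and Yp3, which the female fat body makes, together held 9.97% of the summed means of the authors' deposited table and were higher in the mutant, and the part of this in other changes was not tested. Of 13 ovary and eggshell markers 4 were listed, with means from 1.34 to 6.47 normalized counts in the authors' deposited table, and of 9 gut markers 5 were listed, with means from 1.60 to 7.55. Means of the 6 neuron markers, by contrast, ran from 573 for elav to 3494 for Syt1 in the authors' deposited table. The neuron markers were also long, with a median summed exon length of 8952.5 bases. That of photoreceptor markers was 1567.5, of glial markers 3067.5 and of hemocyte markers 3296.5 bases. Calls varied with exon length, as given below, and the part of length in the marker calls was not tested.

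The targeted gene came out higher, not lower. The gene foxo (FBgn0038197, arm 3R, 14056945 to 14087978, dm6) had a log2 change of 0.33 with a standard error of 0.09 in the authors' deposited table, at its adjusted p of 0.00465. Reads counted over a whole gene say nothing about a lesion inside it, so this value does not check the genotype. Among 27 forkhead genes and FOXO partners tested, foxo was the 1 higher member and 4 were lower by the authors' deposited table. Over all tested genes 6.26% were higher and 6.51% lower. The lower ones were the neuronal forkhead gene FoxP (-0.69, SE 0.12), the JNK kinase gene bsk (-0.34), the kinase gene sgg (-0.23) and 14-3-3zeta (-0.22), which encodes a protein that binds phosphorylated FOXO, by the authors' deposited table. The list's median of 0.0002 stood beside 0.004 over all tested genes in the authors' deposited table.

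Genes of the insulin pathway itself went both ways. Of 36 members tested, 2 were higher and 5 lower in the mutant, with a median log2 change of -0.11 by the authors' deposited table. The share over all tested genes was 6.26% higher and 6.51% lower, so the higher calls were near it. Among the ligands, Ilp3 was lower (-1.04, SE 0.21, adjusted p = 4.69e-05), while Ilp2 (0.24, adjusted p = 0.189) and Ilp5 (0.07, adjusted p = 0.917), which the same brain cells make, did not pass by the authors' deposited table. The fat body ligand Ilp6 was lower (-0.76) and ImpL2, whose product binds and blocks insulin-like peptides, was higher (1.09, SE 0.20) by the authors' deposited table. Of the exon bases of ImpL2, 61.9% are shared with the annotated gene CG46460, and strand is not recorded as marked by the kit, so their reads cannot be told apart. Downstream of the receptor, the adaptor gene dock (-0.47) and the kinase gene Pdk1 (-0.25) were lower, as was the stress sensor gene Sesn (-0.85), in the authors' deposited table. Akt (-0.28, adjusted p = 0.0911), raptor (-0.32, adjusted p = 0.0619), chico (-0.22), Tor (-0.10), S6k (0.22) and Rheb (0.12) did not pass by the authors' deposited table. The receptor gene InR did not pass either (-0.20, adjusted p = 0.428) by the authors' deposited table.

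Amino acid breakdown showed opposite calls at successive steps of 1 pathway. Of 28 tested genes for tyrosine, tryptophan, lysine and related breakdown, 6 were higher and 7 lower by the authors' deposited table. Tat, the aminotransferase that opens tyrosine breakdown, was higher (0.35) by the authors' deposited table. The enzymes that follow it were lower by the authors' deposited table, namely Hpd at -1.42 (2.67-fold lower, SE 0.11, adjusted p = 2.31e-32), hgo at -0.80, GstZ2 at -0.47 and Faa at -0.79. Of the exon bases of Hpd 27.3% are shared with CtIP and a noncoding gene. The lysine enzyme gene LKR was higher (1.24), with Oat (0.56) of ornithine breakdown and Kyat (0.43) and KFase (0.42) of the kynurenine pathway of tryptophan breakdown, in the authors' deposited table. The glutamine synthetase gene Gs1 was lower (-0.94, SE 0.08) by the authors' deposited table.

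Serine and one-carbon genes also went both ways. Of 19 tested, 3 were higher and 5 lower by the authors' deposited table. The phosphoserine phosphatase gene aay was lower by 2.83-fold (log2 change -1.50, SE 0.10, adjusted p = 4.08e-46), followed by Mthfs (-0.76) of folate handling, CG11899 (-0.53), the serine hydroxymethyltransferase gene Shmt (-0.52) and CG6287 (-0.29), in the authors' deposited table. Sardh, for the breakdown of sarcosine, was higher (0.83), with Cth (0.40) and AhcyL1 (0.32), in the authors' deposited table. Purine and pyrimidine genes gave 5 higher and 4 lower of 24 in the authors' deposited table. There the purine synthesis genes Prat2 (-0.63) and Gart (-0.39) were lower and the adenosine deaminase gene Adgf-A (0.85) was higher by the authors' deposited table.

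Carbon metabolism held single large changes. Of 24 genes of glycolysis and pyruvate use 4 were higher and 6 lower by the authors' deposited table, the largest being lactate dehydrogenase, Ldh (-1.24, SE 0.13), and the malic enzyme gene Men-b (-0.48). Of 29 sugar genes 6 were higher and 2 lower by the authors' deposited table. Zw (0.65) and Pgd (0.45), which encode dehydrogenases of the pentose phosphate pathway, and the sorbitol dehydrogenase genes Sodh2 (0.90) and Sodh1 (0.58) were higher, and glycogen synthase, Glys (-0.46), was lower by the authors' deposited table. Of 43 lipid genes 5 were higher and 8 lower by the authors' deposited table. The triglyceride synthesis gene mdy (-0.51), the lipid droplet gene Lsd-2 (-0.44) and the lipin gene Lpin (-0.37) were lower, and the lipoprotein assembly gene Mtp (0.51) and Apoltp (0.33) were higher while the lipoprotein gene apolpp was lower (-0.25) by the authors' deposited table.

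Several genes of protein entry into the endoplasmic reticulum were higher. On a list of 52 genes of folding and secretion 11 were higher and 2 lower, with a median log2 change of 0.18 by the authors' deposited table. Of the 11, 8 act in signal recognition and translocation, and without the 14 members of that kind the other 38 gave 3 higher and 2 lower by the authors' deposited table. A list of 17 genes for the signal recognition particle, its receptor, the translocon and signal peptidase was therefore drawn up after these values were seen, and it is a description with no independent weight. On it 11 were higher and 0 lower, 16 had a positive sign and the median was 0.38 in the authors' deposited table. The largest was TRAM, of the translocon (1.15, SE 0.12, adjusted p = 2.48e-19), followed by SsRbeta (0.67), the channel genes Sec61alpha (0.63) and Sec61beta (0.53), Gtp-bp (0.52) of the signal recognition receptor, the signal peptidase gene twr (0.46) and Sec61gamma (0.43), in the authors' deposited table. Outside it, the disulfide isomerase gene CaBP1 (0.69), Der-1 (0.50) and Der-2 (0.40) were higher, and the calnexin gene Cnx99A (-0.50) and the stress kinase gene PEK (-0.33) were lower by the authors' deposited table. CrebA, a factor known in flies to drive secretory pathway genes, was higher (0.86, SE 0.13), and Xbp1, a factor of the unfolded protein response, was at -0.01 with an adjusted p of 0.954 in the authors' deposited table.

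Calls among ribosome genes lay in the nucleolar and cytosolic lists. Of 44 genes of ribosome biogenesis and the nucleolus 9 were higher and 1 lower, with 41 positive in sign and a median of 0.25 by the authors' deposited table. The members were mostly proteins of small nucleolar RNA particles, such as Nop56 (0.74, SE 0.12), NHP2 (0.60), the fibrillarin gene Fib (0.58) and Nop60B (0.48), with Nopp140 (0.55) and Ns1 (0.51), and the lower one was Nop17l (-0.42), in the authors' deposited table. Of 85 cytosolic ribosomal protein genes 49 were higher and 0 lower (median 0.20), and of 72 mitochondrial ribosomal protein genes 0 were called in the authors' deposited table, which was made with DESeq per the submitters' processing notes. The mitochondrial list had a median of 0.08 and 5 genes at an unadjusted p under 0.05 in the authors' deposited table. Both sets were measured with unequal precision, since the median standard error was 0.07 for the cytosolic and 0.18 for the mitochondrial list in the authors' deposited table, and the difference between the lists was not tested. Of 48 translation factor genes 6 were higher and 1 lower by the authors' deposited table. The elongation factor gene eEF1delta (0.61) was the largest, and eEF1alpha2 (-0.27), whose homologue in mammals is the neuronal and muscle form, was the lower one in the authors' deposited table.

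Neuronal lists leaned lower, each with its own count. Of 26 genes of synaptic vesicle release 14 were lower and 0 higher, all 26 had a negative sign and the median was -0.24 in the authors' deposited table. The syntaxin gene Syx1A (-0.43), the priming factor gene unc-13 (-0.34), the calcium channel gene cac (-0.33) and the active zone gene brp (-0.30) led them in the authors' deposited table, with Caps (-0.36). Of 42 ion channel and pump genes 16 were lower and 3 higher (median -0.20) by the authors' deposited table. The sodium leak channel gene na (-0.49) and both genes for its partner proteins, unc80 (-0.53) and unc79 (-0.28), were lower, as was the calcium channel gene Ca-alpha1D (-0.57), in the authors' deposited table. The potassium channel gene sand (0.64), the innexin gene ogre (0.44) and Ih (0.27), for a channel opened by hyperpolarization, were the higher ones in the authors' deposited table. Of 9 nicotinic acetylcholine receptor subunit genes 5 were lower and 0 higher (median -0.28), from nAChRalpha4 at -0.81 (SE 0.12, adjusted p = 7.73e-10) to nAChRalpha6 at -0.28, in the authors' deposited table. Of 22 receptor genes for GABA and glutamate 3 were lower and 0 higher, and of 17 monoamine receptor genes 2 were lower and 0 higher, DopEcR (-0.66) and Dop1R1 (-0.41), in the authors' deposited table. Beside the 6.51% lower over all tested genes, these last 2 lists are too small for their counts to say much.

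Transmitter handling and wiring genes gave the next counts. Of 29 genes of transmitter synthesis and transport 10 were lower and 1 higher (median -0.13) by the authors' deposited table. Besides Gs1 these included CarT, the carcinine transporter gene of histamine recycling (-0.85), the glutamate transporter genes Eaat2 (-0.42) and VGlut (-0.39) and the choline transporter gene ChT (-0.41), in the authors' deposited table. Of 51 genes of the immunoglobulin families that match neurons to partners, 6 were lower and 1 higher (median -0.18) by the authors' deposited table, where 6.51% of all tested genes were lower and 6.26% higher. DIP-delta (-0.87), DIP-epsilon (-0.84) and dpr21 (-0.59) led them, and side-V (0.39) was the higher one, in the authors' deposited table. Of 30 genes of the axonal cytoskeleton 9 were lower, led by Map205 (-0.53), and of 38 genes for neuronal RNA binding 12 were lower, led by bru3 (-0.42), with 0 higher on the axonal and 1 on the RNA-binding list, by the authors' deposited table. Among 42 phototransduction genes, 18 were lower and 2 higher by the authors' deposited table, the lower ones including ninaG (-0.57), Rh5 (-0.44) and the phospholipase C gene norpA (-0.33).

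Neuropeptide genes were called both ways. Of 38 precursor and processing genes 9 were lower and 4 higher (median -0.11) by the authors' deposited table. Of 37 genes for peptide and hormone receptors 0 passed and 2 had an unadjusted p under 0.05 (median log2 change -0.10, median SE 0.20) in the authors' deposited table. Lower precursors besides Ilp3 were Hug (-0.86), Mip (-0.66), Crz (-0.62), Dh31 (-0.44) and Pdf (-0.43), and CNMa was higher (1.04, SE 0.22) by the authors' deposited table. The convertase gene amon (-0.24) and its helper 7B2 (-0.26) were lower, and the amidating enzyme gene Phm was higher (0.29) by the authors' deposited table. Of 73 tested genes for smell and taste receptors 0 passed and 0 had an unadjusted p under 0.05 in the authors' deposited table, where the summed mean of all listed members was 1337 normalized counts, so that little could be detected. Odorant binding protein genes gave 5 higher and 5 lower of 35, from Obp99c at -1.18 to Obp57a at 1.06, in the authors' deposited table.

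**Figure D2:**
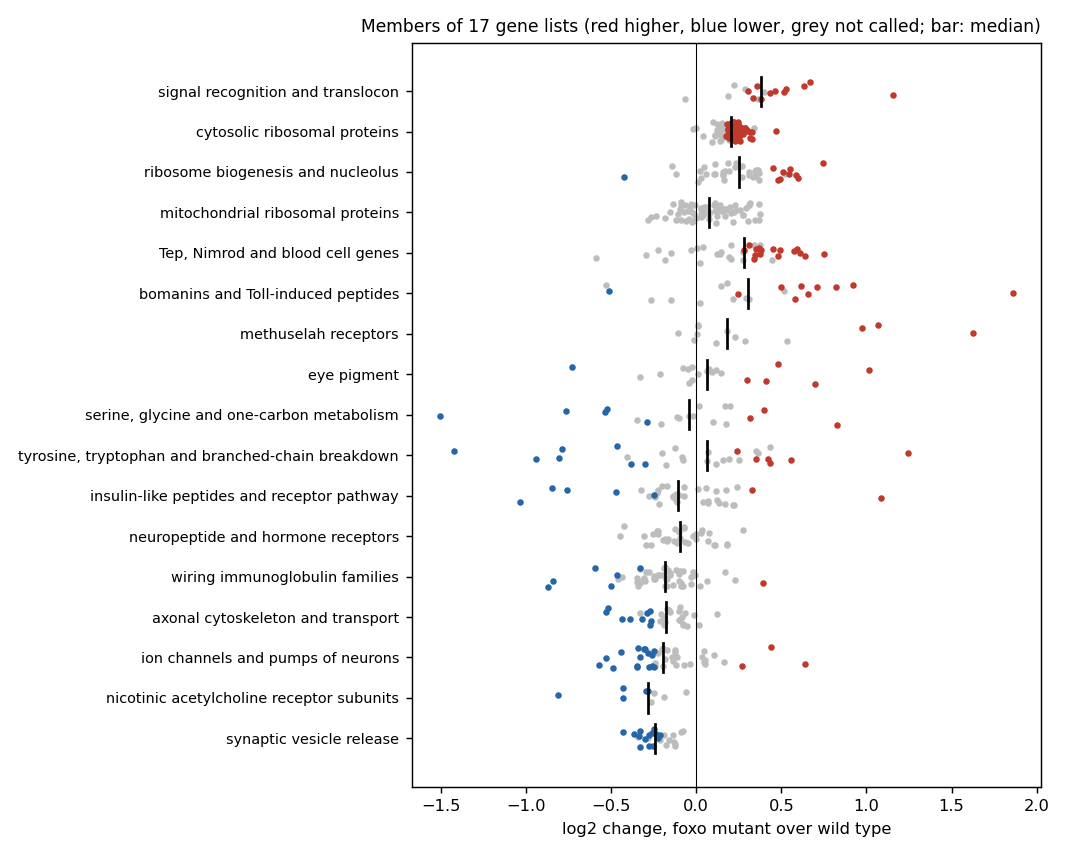
Each point is a tested member of 1 of 17 gene lists, placed by its log2 change of foxo mutant over wild type in the authors' deposited table, with red for higher, blue for lower, grey for not called and a black bar for the list's median. Cytosolic ribosomal protein genes cluster near 0.20, synaptic vesicle genes all lie below 0, and the amino acid lists spread to both sides, to aay at -1.50 and LKR at 1.24.

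Eye pigment genes held more higher than lower calls. Of 19 tested, 5 were higher and 1 lower by the authors' deposited table, with a median of 0.06. The transporter subunit genes st (1.01, SE 0.15) and bw (0.48) and the pteridine synthesis genes se (0.70), pr (0.41) and Pu (0.30) were higher, and cd (-0.73), of ommochrome synthesis, was lower by the authors' deposited table. The control line carries w1118, and w, whose product pairs with those of st and bw, was not analysed here.

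Blood cell and humoral lists held more higher than lower calls, and the part of cell numbers in this was not tested. Of 37 genes of blood cells 16 were higher and 0 lower (median 0.28), among them the laminin gene LanB2 (0.75), SPARC (0.64) and the phagocytic receptor gene NimC1 (0.37), in the authors' deposited table. That list holds all 8 hemocyte markers, and of the other 29 genes 10 were higher and 0 lower by the authors' deposited table. Among 27 matrix genes 9 were higher and 5 lower by the authors' deposited table, since wb, an alpha laminin gene (-0.68), and the heparan sulfate proteoglycan genes dally (-0.37), dlp (-0.31) and trol (-0.25) were lower. Of 20 Toll-induced peptide genes 9 were higher and 1 lower (median 0.30) by the authors' deposited table, from Drsl4 at 1.86 and Dso2 at 0.92 to BomT3 at -0.51. Of 34 Toll and Imd pathway genes, the protease gene grass (0.72), the serpin gene nec (0.58), the Toll ligand gene spz (0.44), cact (0.39) and Rel (0.31) were higher and Diap2 (-0.27) was lower by the authors' deposited table. These peptide genes were also measured less precisely than others, since 9 of the 18 with a mean of at least 50 normalized counts had a standard error of at least 0.18, against 829 of 6742 genes in the authors' deposited table. That error limit was chosen after the values were seen. Of 11 genes for which the authors' deposited table gives no p-value, 5 were immune peptide genes, Mtk, BomBc1, DptB, AttB and CecA2.

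Further small families held members of large change. Of 13 methuselah-type receptor genes 3 were higher and 0 lower, mthl8 (1.63, SE 0.15), mthl2 (1.07) and mthl4 (0.98), in the authors' deposited table. Of 14 genes of the takeout family, which encode carriers of hydrophobic molecules, Jhbp11 (1.21), to (1.02) and Jhbp14 (0.28) were higher and Jhbp2 (-0.80) lower by the authors' deposited table. On a list of 62 cytochrome P450 genes, which covers part of the family and mostly its Cyp4 and Cyp6 branches, 6 were higher and 13 lower, from Cyp4p2 at -2.46 (SE 0.22) to Cyp4s3 at 1.36, in the authors' deposited table. Of 25 metal handling genes 6 were higher and 0 lower, including the metallothionein gene MtnD (0.64), the transferrin gene Tsf3 (0.57) and the ferritin genes Fer1HCH (0.28) and Fer2LCH (0.23), in the authors' deposited table. Of 25 small RNA pathway genes the piRNA genes qin (-0.90) and aub (-0.55) were lower and AGO3 (0.61) was higher by the authors' deposited table, with loqs (-0.40) and gw (-0.19) also lower. Of 54 genes of the Hippo, EGFR, Notch and Wnt pathways 1 was higher and 2 lower, and of 59 chromatin genes 2 were higher and 2 lower by the authors' deposited table.

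Where called genes lie was examined next, in dm6 coordinates. Of the 11 genes at least 4-fold lower, 8 lay on arm 3R, the arm of foxo, which held 25.0% of the 9737 tested genes with a position, in the authors' deposited table. Among genes at least 2-fold lower 16 of 38 (42.1%) and among those at least 2-fold higher 17 of 54 (31.5%) were on 3R in the authors' deposited table. At between 1 and 4 Mb from foxo on 3R, 9 of 537 tested genes were at least 2-fold lower, against 0 of 142 within 1 Mb, 7 of 1756 farther away on the arm and 22 of 7301 on other arms, in the authors' deposited table. These distance classes were chosen after the values were seen. As stated above, variants that travel with the allele and effects of foxo cannot be told apart in 1 mutant line.

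Named by position, the 8 were CG3397 (-3.40), CG12224 (-2.59), asRNA:CR45600 (-3.06), CG6912 (-2.84), CG6654 (-2.64), CG5391 (-2.66), CG11893 (-2.36) and the dynein heavy chain gene Dhc98D (-2.61) in the authors' deposited table. CG5391 has a mean under the naming limit of 50 normalized counts and was added after its value was seen. CG18547, CG12224 and CG3397 are neighbours at 11978574 to 11984541 with changes of -1.79, -2.59 and -3.40, and nearby GC2 (-0.95) lies wholly within exons of Tango9, in the authors' deposited table. CG6912, asRNA:CR45600 and CG3987 (-1.06) stand together at 15135138 to 15141715 between CG42788 (-0.53) and Glys (-0.46), and 63.7% of the antisense gene's exon bases are shared with its neighbours, whose reads it cannot be told apart from, in the authors' deposited table.

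Runs of at least 3 neighbouring genes called the same way numbered 10 on the lower side, with 38 genes, and 6 on the higher side, with 19 genes, in the authors' deposited table. Neighbours here are tested genes in order of their start, at any distance. Not all runs are compact, since rl, CG40191 and Yeti on 2R span 1071462 to 1345119. How many runs an even spread of calls would give was not tested. The run of most genes was on X at 9872382 to 9885044, where CG32695 (-0.88), CG15247 (-0.69), CG1468 (-0.30), CG9686 (-0.71), CG9689 (-0.80) and CG9691 (-0.40) were all lower by the authors' deposited table. A higher run on 3R at 29051056 to 29055837 held CG11841 (1.00), CG11842 (1.31) and CG11843 (0.86) in the authors' deposited table, and 86.3% of the exon bases of CG11843 are shared with an antisense gene. Another on 2L at 19961758 to 19965702 held CG13965 (1.12), CG16772 (1.09) and CG10680 (0.69) in the authors' deposited table. The small chromosome 4 gave 2 higher and 20 lower of 84 tested genes, with a median of -0.16, in the authors' deposited table. Its lower genes included Ekar (-0.44), Actbeta (-0.40) and unc-13 (-0.34) in the authors' deposited table. Of 242 noncoding RNA genes tested 2 were higher and 4 lower by the authors' deposited table.

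Gene length moved with the direction of the change. The median summed exon length was 1713 bases for higher genes and 3541 for lower genes, against 2118 for all tested genes with a position, by the calls of the authors' deposited table. Below 1000 bases of exon 8.70% of genes were higher and 3.22% lower, and at 8000 bases or more 2.52% were higher and 26.5% lower by the authors' deposited table. Neuronal genes are long, so 12 neuronal lists were joined after these values were seen and read within classes of length. They covered vesicle release, ion channels, 4 receptor lists (nicotinic, GABA and glutamate, monoamine, peptide), transmitter handling, immunoglobulin wiring, axon guidance, axonal cytoskeleton, learning and RNA binding. Phototransduction and neuropeptide precursor lists were left out, the latter short (median 1249 bases) with 4 higher and 9 lower of 38. Of the 389 tested genes of the 12 lists 7 were higher and 93 lower (23.9%), with a median of -0.17 by the authors' deposited table. At 8000 bases or more 45 of 88 neuronal genes (51.1%) and 81 of 388 other genes (20.9%) were lower by the authors' deposited table. From 5000 to under 8000 bases 22.3% of neuronal and 9.63% of other genes were lower, and from 2000 to under 3000 bases 10.4% of neuronal and 5.12% of other genes, in the authors' deposited table. Under 2000 bases the share was 3 of 18 neuronal genes (16.7%) and 3.93% of other genes, with medians of 0.06 and 0.05, in the authors' deposited table. In the 5 classes of length the neuronal share of lower genes was above that of other genes, but within the neuronal lists it did not increase with length throughout. The part of RNA quality or of counting by length was not tested, since no female library was given. The classes of length do not match neuronal and other genes by mean normalized count, and the part of abundance was not tested either. Over all tested genes 2.84% were lower at means of 50 to 100 and 25.0% at 1000 to 3000, in the authors' deposited table.

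**Figure D3:**
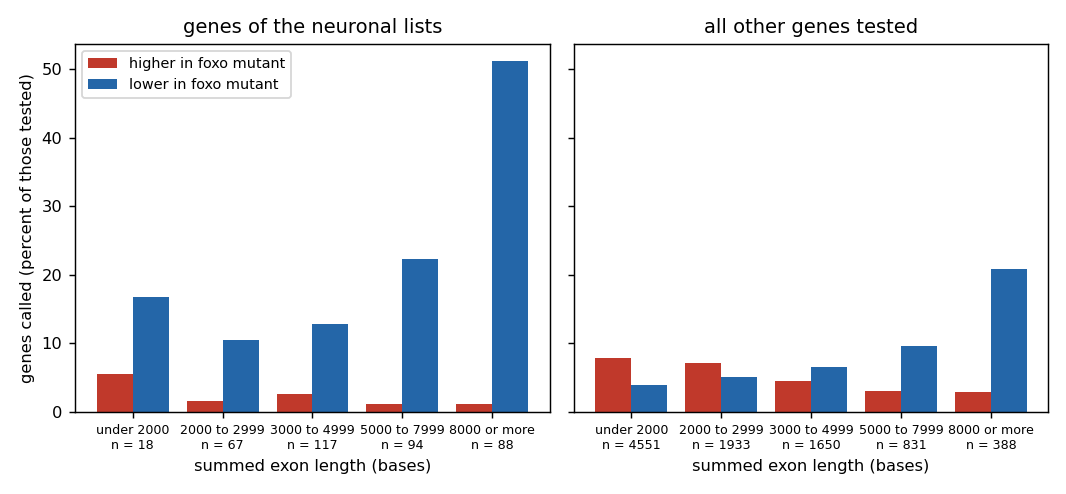
Bars give the percent of tested genes called higher (red) or lower (blue) in foxo mutant females by the authors' deposited table, in classes of summed exon length, for genes of 12 neuronal lists on the left and all other genes on the right, with the number of genes under each class. The share of lower genes reaches 51.1% of the longest neuronal genes and 20.9% of the longest other genes.

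The precision of the changes and the share of genes called both varied with abundance. The median standard error was 0.22 for means of 10 to 20 normalized counts, 0.14 for means of 100 to 300 and 0.07 for means of 3000 or more, and it was again low, 0.14, for means under 5, in the authors' deposited table. At the same time 35.9% of the 198 genes with means of 3000 or more were higher and 13.6% lower, 12.9% higher and 25.0% lower for means of 1000 to 3000, and 6 of 683 genes with means under 5 were called in the authors' deposited table. How many of the most abundant genes were cytosolic ribosomal protein genes was not counted. The sources used here do not state whether its fold changes were shrunken toward 0. Its standard errors had a ceiling of 0.224, with 401 genes within 0.001 of it. No gene with a mean under 5 changed by more than 0.55 on the log2 scale. Shrunken estimates behave in this way, so the sizes given for scarce genes may be too small. A lack of a call at a low mean says little. Some abundant genes carried errors far above the median of their abundance in the authors' deposited table, such as CG16772 (mean 2032 normalized counts, SE 0.22), Lsp1beta (mean 445, SE 0.22), fit (mean 1402, SE 0.20) and ImpL2 (mean 638, SE 0.20), all of which were called higher. In the authors' deposited table the tyrosine hydroxylase gene ple (0.46, SE 0.22, adjusted p = 0.183) and BomS1 (0.52, SE 0.22, adjusted p = 0.114) did not pass.

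The study also followed genes through male life, so the genes called in mutant females at day 3 were looked up in wild-type male heads at day 45 against day 3. The females and males share no library but differ in sex. In limma's test on log2(normalized count + 1), 1555 genes rose (17.4%) and 1629 fell (18.3%) of 8921 tested by an adjusted p under 0.05, and among the 8564 genes tested in both tables a share of 17.1% rose and 18.3% fell. Of genes higher in the mutant by the authors' deposited table, 229 of 562 (40.7%) rose and 66 (11.7%) fell with age. Of genes lower in the mutant by the authors' deposited table, 117 of 624 (18.8%) rose and 271 (43.4%) fell with age. The 229 made up 15.6% of all genes that rose, where 6.56% of genes in both tables were higher in the mutant, and the 271 made up 17.3% of all that fell, where 7.29% were lower in the mutant, by the calls of the authors' deposited table.

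For the lower genes this varied with the size of the change. Among those lower by less than 0.5 on the log2 scale in the authors' deposited table, 46 of 424 (10.8%) rose and 226 (53.3%) fell with age. Among those lower by at least 0.5, 71 of 200 (35.5%) rose and 45 (22.5%) fell, and among those lower by at least 1, 20 of 37 rose and 9 fell, by the authors' deposited table. Genes higher by at least 0.5 gave 36.5% that rose and 10.9% that fell, beside 44.8% and 12.5% for smaller rises, in the authors' deposited table. Uncalled genes with a change of at least 0.5 in either direction, 57 in number, gave 35.1% that rose and 14% that fell, a share of rises near that of the large losses, by the authors' deposited table. Abundance and exon length moved with this too. Of the lower genes with a mean under 300 normalized counts 28.2% rose and 26.7% fell with age, and of those with a mean of 300 or more 14.1% rose and 51.7% fell, beside 19.1% and 30.6% of uncalled genes of that abundance, by the calls of the authors' deposited table. Of the lower genes of 5000 bases or more 123 of 224 (54.9%) fell with age, beside 29.2% of uncalled genes of that length, and of the lower genes under 2000 bases 36.2% rose and 20.1% fell, by the calls of the authors' deposited table. These classes of size, abundance and length were chosen after the values were seen.

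**Figure D4:**
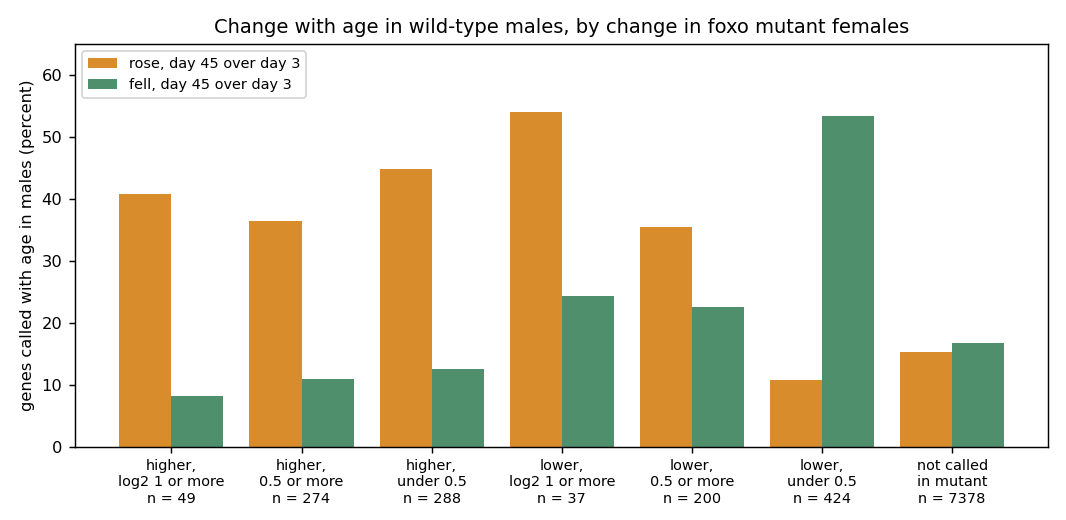
Bars give the percent of genes that rose (orange) or fell (green) in wild-type male heads at day 45 against day 3, for classes of genes by their change in foxo mutant females in the authors' deposited table, with n under each class; the class of 1 or more lies within the class of 0.5 or more. The small losses fell with age in 53.3% of cases, while of the genes lower by 1 or more 54.1% rose.

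Genes lower in the mutant that rose with age included several of the large losses named above. For Ldh, at -1.24 in the authors' deposited table, the male libraries held 26.9, 33.0 and 37.95 normalized counts at day 3, 33.5 to 52.6 at day 15, 56.7 to 72.4 at day 30 and 89.95, 97.2 and 125 at day 45. Its day 45 libraries all lay above those of the other 3 ages, and the rise had a log2 change of 1.64 (SE 0.19, limma adjusted p = 4.45e-06). The mean of Ldh over the females was 317 normalized counts in the authors' deposited table, which was scaled separately, so the 2 levels are not comparable. For Hpd the male libraries held 479, 520 and 610 normalized counts at day 3, 1377 to 1689 at day 15, 972 to 1164 at day 30 and 1032, 1037 and 1436 at day 45. Its mean was highest at day 15, and every later library lay above those of day 3 (log2 change at day 45 of 1.11, SE 0.12, limma adjusted p = 2.98e-06). The next step, hgo, rose as well (1.27), and so did Shmt (0.55), CG11899 (0.81) and CG6287 (0.52), whereas aay was at 0.02 with a limma adjusted p of 0.939. CG11893 held 79.0, 80.6 and 86.7 normalized counts at day 3 and 144, 229 and 263 at day 45 in males (log2 change 1.31, SE 0.20, limma adjusted p = 9.33e-05). CG16758, 4.01-fold lower in the mutant by the authors' deposited table, rose with age by a log2 change of 0.69 (SE 0.11, limma adjusted p = 0.000106). The transporter gene MFS3 also rose with age (log2 change 1.61, limma adjusted p = 0.0207), but from 4.89, 6.51 and 9.005 normalized counts at day 3 in males, against a mean of 121 over the females of the authors' deposited table, which were scaled separately.

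The translocon and nucleolus lists were read with age as well. Of 16 genes of signal recognition and translocation tested in males 10 rose and 0 fell with age, including TRAM (0.50), and of 42 ribosome biogenesis genes 15 rose and 0 fell, by limma's adjusted p under 0.05. Among single genes, Mec2, at 1.42 in the authors' deposited table, had 28.2, 37.9 and 39.0 normalized counts at day 3 and 108, 125 and 132 at day 45 in males, with no overlap (log2 change 1.78, SE 0.17, limma adjusted p = 6.69e-07). CG9119, at 1.28 in the authors' deposited table, had 103, 140 and 174 at day 3 and 250, 331 and 432 at day 45 in males (log2 change 1.27, limma adjusted p = 8.92e-05). The peptide gene Def (0.71 in the authors' deposited table) rose with age by 2.93 and CecC (0.77) by 3.90 on the log2 scale in limma's test, both from means under 10 normalized counts in the females.

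Genes lower in the mutant that fell with age included the nicotinic receptor gene nAChRalpha4, which had 643, 720 and 818 normalized counts at day 3 and 370, 379 and 436 at day 45 in males (log2 change -0.88, SE 0.10, limma adjusted p = 3.18e-06). Of 25 synaptic vesicle genes tested in males 22 fell and 0 rose, and of 9 nicotinic receptor genes 8 fell and 0 rose with age, by limma's adjusted p under 0.05. The share over all genes tested in both tables was 18.3% that fell and 17.1% that rose. Ilp3 had 21.0, 22.0 and 23.9 normalized counts at day 3 and 4.34, 7.17 and 11.7 at day 45 in males, with no overlap (log2 change -1.50, SE 0.41, limma adjusted p = 0.00833). Of the other lower genes of the neuropeptide list, the precursor genes Hug (1.08), Crz (1.15), Pdf (0.87), Mip (0.65) and Dh31 (0.35) rose with age on the log2 scale by limma's adjusted p under 0.05. Among its processing genes 7B2 fell (-0.36), and amon (-0.06) and Pal2 (-0.12) did not pass by limma's adjusted p. Scp1, which encodes a calcium-binding protein and was at -0.60 in the authors' deposited table, had 105, 108 and 149 normalized counts at day 3 and 10.8 to 19.9 in every later male library (log2 change at day 45 of -3.03, SE 0.21, limma adjusted p = 3.94e-08).

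The smallest overlap was that of the 66 genes higher in the mutant that fell with age. It held cuticle genes such as Cpr49Ag, at 0.73 in the authors' deposited table, with 242, 260 and 338 normalized counts at day 3 and 26.0, 36.9 and 55.3 at day 45 in males (log2 change -2.85, SE 0.20, limma adjusted p = 2.93e-08). It also held the flight muscle actin gene Act88F, at 0.72 in the authors' deposited table, with 18.4, 22.0 and 44.0 normalized counts at day 3 and 5.42, 8.96 and 9.22 at day 45 in males (log2 change -1.65, SE 0.36, limma adjusted p = 0.00183). The eye pigment genes se (-1.07), Pu (-1.12) and pr (-0.94) belonged to it as well on the log2 scale of limma's test, while bw rose with age (0.49).

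**Figure D5:**
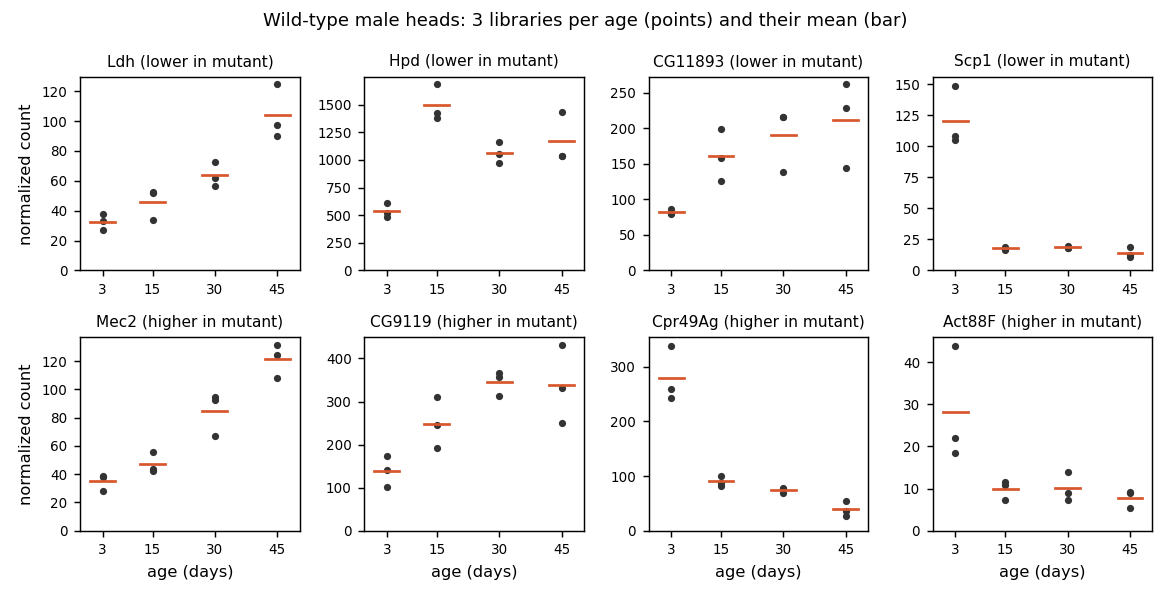
Normalized counts of 8 genes in wild-type male heads by age in days, with a point for each of the 3 libraries and a bar for their mean, and the gene's direction in foxo mutant females of the authors' deposited table in each title. Ldh, Hpd and CG11893 were lower in the mutant and rose with age, Scp1 was lower and fell, Mec2 and CG9119 were higher and rose, and Cpr49Ag and Act88F were higher and fell, by limma's test of day 45 against day 3.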

How the data were processed

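Polyadenylated RNA was measured in whole heads, from 3 libraries of foxo c431 homozygous and 3 of wild-type females (day 3) and 12 of wild-type males (days 3, 15, 30 and 45). The submitters' processing notes name STAR, HTSeq, DESeq and the build dm6, without versions. Per the labels' protocols the kit is not said to mark strand. The female comparison was deposited by the authors as a mean of normalized counts (a signal), a log2 change (mutant over wild type) and its error, the quotient of the 2 as a test statistic (a score that the authors deposited) and the authors' p-value and adjusted p-value. Its 10480 genes include 11 without a p-value and 620 without an adjusted one. Test and threshold are the authors' adjusted p under 0.05, since no value per library allowed a new fit. A log2 change that was shrunken would be too small. The sources used here do not state whether the authors shrank it, but the errors had the ceiling given above.

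The male table was deposited as a normalized signal per library. Each deposited value was a whole number of reads to within 0.001, so whole counts were recovered from it. Ages were tested with limma 3.58.1 (R 4.3.3, intensity trend) on log2(value + 1) in 1 model of all 12 libraries, for the 8921 genes that reached 10 in 3 or more libraries, at a Benjamini-Hochberg adjusted p under 0.05. edgeR 4.0.16 on recovered counts was an added alternative, chosen after seeing the data. On simulated counts the test recovered 88% of genes changed 2-fold and 32% of those changed 1.5-fold, with 13 false calls. The simulation gave every gene the same spread, which was set and not estimated from these libraries, so the real rates may differ. The p-values rest on the spread between libraries, which may be technical.

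Gene names were matched to the Ensembl annotation of dm6 by symbol (8340) or synonym (2012), which left 128 unmatched. The 66 gene lists, the members and the tests were chosen with earlier results of these data known, and the lists are described by counts and medians, with no test. After counts per list had been seen, a few misplaced members were removed from or added to lists, and the lists of cytosolic ribosomal proteins and of signal recognition and translocation were added. Named genes were foxo, the 15 called genes of largest change each way with a mean of at least 50, up to 6 called members of each list, any member of the insulin, forkhead and takeout lists, the 10 of largest joint change per combination of mutant and age direction, and genes in runs of at least 3 called neighbours. Further list members, positions and high-error genes were named after their values were seen. A planned count of FOXO motifs in promoters was not made, and no sequence was used here.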

Additional observations from a re-analysis of the deposited data

How the results depend on the processing

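The calls of the females are the authors' own, so no female library could be left out and no shrinkage undone. Adjusted over every gene to which the authors' deposited table gives a p-value, the mutant had 609 higher and 630 lower genes, and 2 of the named genes lost their call while 440 stayed on their side. At an adjusted p under 0.01, 407 genes were lower in the mutant and 174 of these fell with age. With a change of at least 0.5 on the log2 scale required, 311 were higher and 207 lower by the authors' deposited table, and of these 100 were higher and rose, 30 higher and fell, 71 lower and rose and 45 lower and fell with age. There the order of rising and falling genes among those lower in the mutant turned round, as reported above by size of change. For ages, leaving out each male library in turn gave 1246 to 1552 genes that rose and 1271 to 1640 that fell, with 187 to 231 higher and rose, 56 to 67 higher and fell, 99 to 117 lower and rose and 224 to 278 lower and fell. The replicate number as a block gave 1517 rises and 1601 falls. Same-numbered libraries correlated between -0.255 and 0.154 in their deviations from the mean of their age. With 3 libraries at each age these values cannot tell whether libraries of the same number were paired. Another pseudocount, no filter, TMM scaling, days 3 and 45 alone and edgeR kept each age count within 1.5 times. The male depth of 2999956 to 4102364 recovered reads limits what could be called among scarce genes. The planned motif count was not run.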
